A study of Mus musculus with 2 samples.

Results

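Transcripts of 10 genes of blood and lymphatic vessels were compared in the back skin of mice with and without an active aryl hydrocarbon receptor (AhR) in the epidermis. They were found by gene symbol in the platform annotation and had 15 probe sets, and they are 10 of the 12393 genes that the annotation names. Lyve1, Prox1 and Flt4 are lymphatic, Plvap, Pecam1, Kdr, Cdh5 and Tek are endothelial genes used mainly for blood vessels, and Vcam1 and Icam1 are adhesion genes. Besides their roles, they were selected on the transgenic and wild-type signals of these same arrays, so their values are given as a description. One array was made from total RNA of transgenic mice with a constitutively active form of AhR in keratinocytes (labelled K14Ahr), and the other from that of non-transgenic wild-type littermates. All mice were 10 days old, and no further allele or treatment is named for either group. The labels give neither the number of animals behind an array nor a founder line. They place the transgene in keratinocytes but do not spell out what drives it. With 1 array per genotype there is no replicate error and no test, and the values compare these 2 arrays only. AhR is a transcription factor that senses dioxins and other aromatic compounds, and the active form signals without a ligand.

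Endothelial cells line all vessels. Blood capillaries of skin need vascular endothelial growth factor (VEGF) signalling through Kdr and angiopoietin signalling through Tek, while lymphatic vessels are specified by the transcription factor Prox1 and grow in response to VEGF-C and VEGF-D through Flt4. In inflamed skin, endothelium displays adhesion proteins such as Icam1 and Vcam1, which leukocytes bind with their integrins as they leave the blood.

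Lyve1 and Plvap were at least 2-fold higher on the transgenic array, Icam1 fell just short of that limit, and the junction genes Pecam1 and Cdh5 differed little. Values are signal intensities in arbitrary units, already scaled by the authors. A floor of 34.7, the 40th percentile of all signals, was set, and a signal below it has no order. Where 1 array lay below it, the ratio is a bound. Of the 10 genes, 9 exceeded the floor somewhere, 5 of them in both genotypes, and Prox1 in neither. In raw signal, 8 of the 10 genes read higher on the transgenic array and 2 lower by their brightest probe set. The 8 include Prox1, whose signals lie below the floor and so have no order. Of all 8894 genes above the floor in either genotype, 2.27% were at least 2-fold higher in transgenic skin and 1.09% at least 2-fold lower. Their median log2 ratio was -0.05, and 43.6% of them had a log2 ratio above 0. Since these values chose the vessel genes, nothing is read from setting their counts beside those shares. All the vessel genes were dim, with no signal above 122. Among the 4253 genes with a mean signal of at most 100, 1.83% were higher and 1.22% lower by 2-fold or more. Of these dim genes, 41.8% had a log2 ratio above 0.

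**Figure D1:**
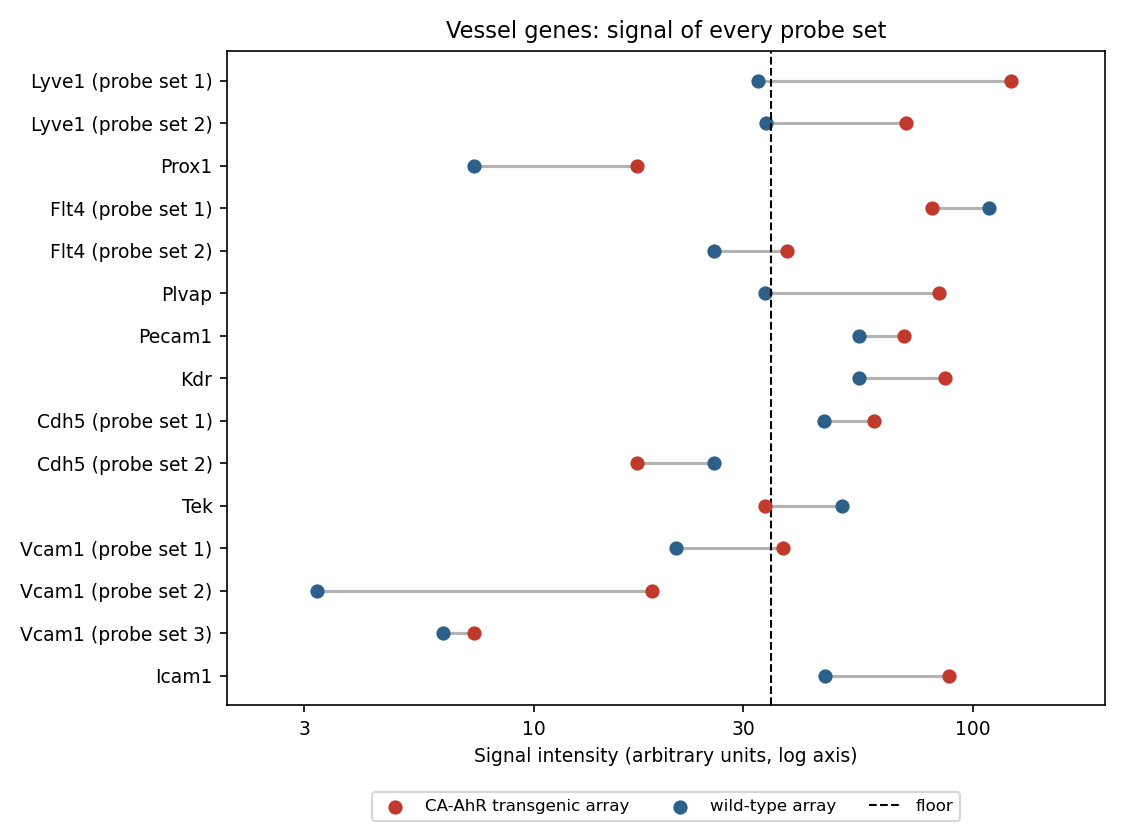
Signal of each of the 15 probe sets of the 10 vessel genes on the transgenic (red) and the wild-type array (blue), in arbitrary units on a log axis, with the floor of 34.7 as a dashed line; probe sets of a gene are numbered from the brightest. The wild-type signals of Lyve1 and Plvap lie just below the floor and the transgenic signals well above it, and 4 probe sets stay below it in both.

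Lyve1 is the hyaluronan receptor of lymphatic endothelium. Its brighter probe set read 122 on the transgenic and 32.4 on the wild-type array, at least 3.52-fold higher (log2 ratio at least 1.81). The other read 70.6 in transgenic skin and 33.8 in wild-type skin, at least 2.03-fold higher. Both probe sets thus gave the same direction, and in both the wild-type signal lay just below the floor. Prox1, the transcription factor that gives lymphatic endothelium its identity, read 17.2 in transgenic and 7.3 in wild-type skin. Both values lie below the floor, so no ratio is given. Flt4, the receptor for VEGF-C and VEGF-D, read 80.8 on the transgenic and 109 on the wild-type array by its brighter probe set, a log2 ratio of -0.43. Its other probe set read 37.8 in transgenic skin and 25.7, below the floor, in wild-type skin, a log2 ratio of at least 0.12. The probe sets of Flt4 therefore disagreed in direction, and Lyve1 was the one lymphatic gene of the set with a ratio of settled direction.

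Of the other lymphatic genes, 13 of 18 listed had a probe set of their own and 10 were measured, meaning above the floor in either genotype. None reached a 2-fold difference, though 3 of the ratios are bounds, among them that of Fxyd6, the gene of an ion pump regulator, which read 40.3 in transgenic and 14.5 in wild-type skin (at least 0.22). Their median was 0.14 on the log2 scale, and it ran from 0.05 to 0.22 over the processing alternatives. The highest of those above the floor in both genotypes was Sox18, a transcription factor that switches on Prox1 in the mouse embryo, which read 75.5 on the transgenic and 42.1 on the wild-type array (log2 ratio 0.84). Pdpn, the gene of podoplanin, followed with 208.0 in transgenic and 125.5 in wild-type skin (0.73), but keratinocytes and fibroblasts make podoplanin too. Tbx1, a transcription factor (-0.34), and Nrp2, a co-receptor for VEGF-C (-0.23), were the lowest of them. Foxc2, a regulator of lymphatic valves, lay below the floor on both arrays (24.3 in transgenic and 3.3 in wild-type skin). Ccl21a had no probe set of its own.

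Lyve1 is not exclusive to lymphatic vessels, since some tissue macrophages of the mouse carry it, and the macrophage genes stood higher on the same array. Of 22 measured macrophage genes, of 26 listed, 14 reached 2-fold higher and none 2-fold lower. Their median was 1.23 on the log2 scale, from 1.10 to 1.66 over the alternatives. The summed signal over the 24 listed genes with a probe set was 4333 in transgenic skin and 1425 in wild-type skin, and no gene read 0 on either array. Mrc1, the mannose receptor, which lymphatic endothelium also makes, read 328 on the transgenic and 60.8 on the wild-type array (log2 ratio 2.43). Cd163, a haemoglobin scavenger receptor of macrophages, read 87.2 in transgenic and 25.1 in wild-type skin (at least 1.33). Stab1, a scavenger receptor shared by macrophages and lymphatic endothelium, read 48.1 in transgenic and 24.0 in wild-type skin (at least 0.47). The general macrophage genes Csf1r (1.06 by its brightest probe set, 0.66 and 0.45 by the others), Cd68 (0.97) and Adgre1 (0.54) were also above 0. Of the 22 measured macrophage genes 21 lay above 0, and Msr1 (-0.29) lay below. The part of these cells in the Lyve1 signal was not tested. In whole skin, a change in the number of cells of a type and a change in RNA per cell cannot be told apart.

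Among the blood endothelial genes Plvap stood highest. It encodes the protein of the diaphragms that span endothelial fenestrae and caveolae, and read 83.9 on the transgenic and 33.6, below the floor, on the wild-type array. This made it at least 2.42-fold higher (log2 ratio at least 1.27). Kdr, the main VEGF receptor of blood endothelium, read 86.6 in transgenic skin and 55.0 in wild-type skin, a log2 ratio of 0.65. Pecam1, an adhesion protein of endothelial junctions that platelets and leukocytes also carry, read 69.8 in transgenic and 55.0 in wild-type skin (0.34). Cdh5, the cadherin of endothelial junctions, read 59.7 in transgenic and 45.8 in wild-type skin (0.38). These 3 genes were above the floor on both arrays, and all 3 were higher on the transgenic one by less than 2-fold. The other probe set of Cdh5 was too dim for a ratio and differed the other way, at 17.2 in transgenic and 25.7 in wild-type skin. Tek, the angiopoietin receptor, read 33.7 in transgenic skin, just below the floor, and 50.3 in wild-type skin. Its log2 ratio was at most -0.54, the lowest of the 9 genes with a ratio. Plvap, Pecam1, Kdr and Tek each rest on 1 probe set, and the name of that of Pecam1 carries a letter suffix, so Pecam1 has no value where such probe sets are left out.

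**Figure D2:**
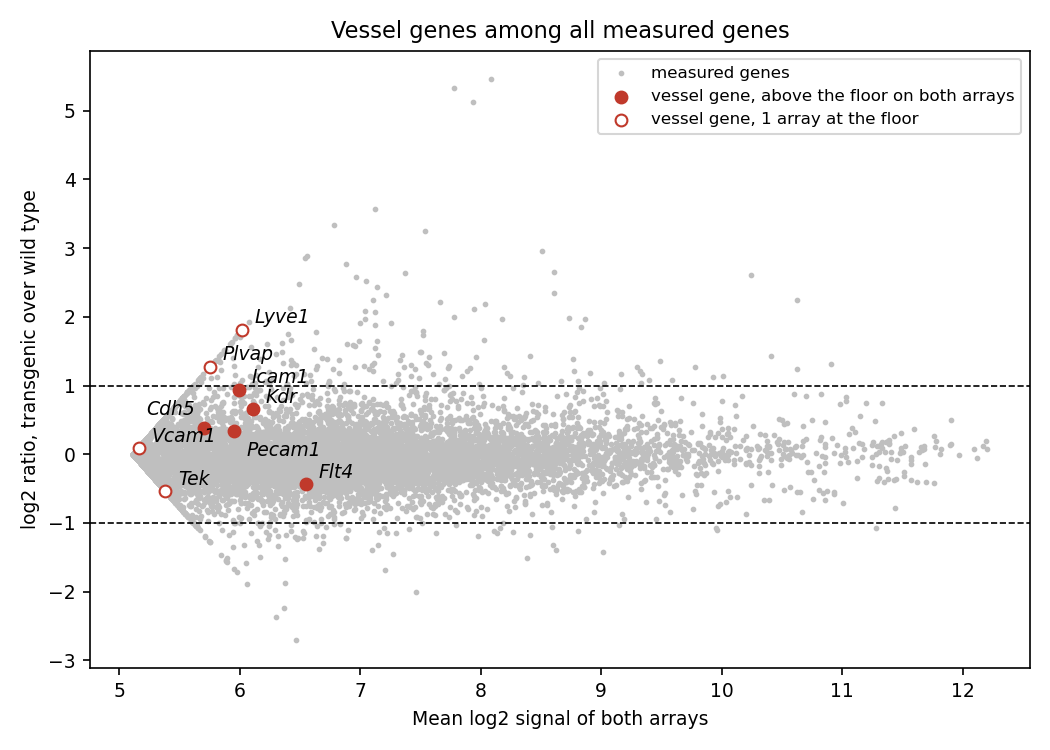
Transgenic over wild-type log2 ratio against the mean log2 signal of both arrays for the 8894 measured genes (grey), with 9 vessel genes in red; open circles are bounds, with 1 array at the floor, and dashed lines mark 2-fold. The vessel genes all lie at the dim end, and only Lyve1 and Plvap of them lie above the upper line.

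The wider blood endothelial list showed no general shift to one side. Of 30 measured genes, of 48 listed, 2 reached 2-fold higher and none 2-fold lower. There were 14 genes above 0 and 16 below 0, and the median was -0.075, from -0.09 to 0.04 over the alternatives, so its sign depended on the processing. The 2 highest were Thbd, the gene of the thrombin receptor thrombomodulin, which keratinocytes make as well (206 in transgenic and 68.1 in wild-type skin, log2 ratio 1.60), and Sox7, a transcription factor related to Sox18 (100.4 in transgenic and 48.8 in wild-type skin, 1.04). Cd93 (-0.47) and Procr, the protein C receptor (-0.45), were the lowest of the 28 above the floor in both genotypes. The blood endothelial genes Eng (-0.13), Emcn (-0.07) and Flt1, a VEGF receptor (-0.17 by its brightest probe set and at least 0.15 by another), read nearly the same on both arrays. Vwf, von Willebrand factor, read 21.8 in transgenic and 8.2 in wild-type skin, and Tie1, a receptor related to Tek, read 3.4 in transgenic and 1.6 in wild-type skin. Both of these defining endothelial genes thus lay below the floor on both arrays. Of 11 measured genes of the mural cells that wrap vessels none reached a 2-fold difference, but Kcnj8, a potassium channel gene, is a bound (24.5 in transgenic and 59.2 in wild-type skin, at most -0.77). The mural median was -0.04 and ran from -0.27 to 0.03 over the alternatives. Pdgfrb, the receptor that recruits pericytes, read 40.3 in transgenic and 39.9 in wild-type skin, and Rgs5, a pericyte gene, 267.6 in transgenic and 303.9 in wild-type skin.

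Icam1, a ligand of leukocyte integrins that keratinocytes and leukocytes can make as well as endothelium, read 88.5 on the transgenic and 46.1 on the wild-type array. Both signals were above the floor, and the gene was 1.92-fold higher (log2 ratio 0.94). Lowess centring put it at 1.03, past the 2-fold limit. Vcam1, which binds an integrin of lymphocytes and monocytes, read 37.0 in transgenic and 21.1 in wild-type skin by its brightest probe set, so the ratio was a bound near equality, at least 0.09 on the log2 scale. Its other 2 probe sets read 18.6 and 7.3 in transgenic skin and 3.2 and 6.2 in wild-type skin, below the floor throughout. All 3 probe sets of Vcam1 were higher on the transgenic array in raw signal, but only 1 value of the 6 exceeded the floor. The endothelial selectin genes, which slow leukocytes before they stop, were dim as well. Selp reached 41.3 in transgenic skin and 26.1 in wild-type skin (at least 0.25), and Sele read 34.5 in transgenic and 21.4 in wild-type skin, below the floor on both. Icam2, an integrin ligand of resting endothelium, lay below it too.

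Of 16 measured genes in the list of other adhesion and homing genes, none reached a 2-fold difference by its brightest probe set, 5 of the ratios are bounds, and the median was 0.02 (0.00 to 0.21 over the alternatives). There were 9 genes above 0 and 7 below 0. The lowest were Itga2 (at most -0.37) and Cd99l2 (-0.34 by its brightest probe set and -0.47 by another). Cd44, a hyaluronan receptor of many cell types, was at 0.83 by its brightest probe set and at 1.40 by the other, and Msn, a linker of membrane and cytoskeleton, was at 0.78. Selplg, the selectin ligand of leukocytes, read 53.4 in transgenic and 9.3 in wild-type skin (at least 0.62), so its ratio may be larger than theirs. Itgb2, the integrin subunit with which leukocytes bind Icam1, read 59.6 in transgenic and 28.0 in wild-type skin (at least 0.78). Itga4, a subunit of the integrin that binds Vcam1, lay below the floor on both arrays (11.9 in transgenic and 3.2 in wild-type skin). Of 12 genes for cytokines that can induce adhesion genes, 4 were measured and 2 of these were at least 2-fold higher, Il33 (98.3 in transgenic and 20.7 in wild-type skin, at least 2.83-fold) and Il18 (291 in transgenic and 130 in wild-type skin, log2 ratio 1.17). Il1b read 93.6 in transgenic and 61.4 in wild-type skin (0.61). Tnf, a classical inducer of Icam1 and Vcam1, lay below the floor on both arrays (19.4 in transgenic and 33.3 in wild-type skin). Their part in the Icam1 signal was not tested.

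Icam1, the highest vessel gene above the floor on both arrays, and Kdr, the next highest, are shown with Tek, the gene with the lowest ratio, by the promoter windows that RefSeq gives for them. Each runs 5′ to 3′ from 250 bases before the gene start to 50 after it, in build GRCm38.p6. Windows were at hand for 5 of the 10 genes. Capitals mark matches on either strand to GCGTG, the core of the site that AhR binds with its partner ARNT, and to GGAAATTCC, a form of the NF-kB site, and the 2 motifs do not overlap in these windows. Both motifs were chosen with the sequences in view.
Icam1 promoter (chr9:21015690-21015989, plus strand): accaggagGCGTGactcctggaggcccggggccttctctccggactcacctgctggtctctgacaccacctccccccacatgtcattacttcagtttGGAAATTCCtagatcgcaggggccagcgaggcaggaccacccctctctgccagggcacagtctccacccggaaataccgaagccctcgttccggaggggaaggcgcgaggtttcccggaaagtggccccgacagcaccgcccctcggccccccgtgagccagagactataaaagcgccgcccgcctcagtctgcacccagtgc
Kdr promoter (chr5:75978406-75978705, minus strand): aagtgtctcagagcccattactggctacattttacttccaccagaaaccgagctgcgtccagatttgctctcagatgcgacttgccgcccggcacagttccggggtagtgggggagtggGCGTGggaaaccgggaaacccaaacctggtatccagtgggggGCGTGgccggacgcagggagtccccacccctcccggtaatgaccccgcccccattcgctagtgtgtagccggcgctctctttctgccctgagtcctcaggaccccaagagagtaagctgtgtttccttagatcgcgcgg
Tek promoter (chr4:94739039-94739338, plus strand): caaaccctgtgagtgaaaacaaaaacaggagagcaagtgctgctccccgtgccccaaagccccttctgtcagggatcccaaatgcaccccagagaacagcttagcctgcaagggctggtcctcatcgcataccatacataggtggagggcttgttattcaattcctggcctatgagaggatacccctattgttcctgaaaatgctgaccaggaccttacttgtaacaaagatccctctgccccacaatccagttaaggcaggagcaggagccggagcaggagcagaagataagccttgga
Icam1 held GCGTG once, starting at -242 from the gene start, and GGAAATTCC once, at -153. Kdr held GCGTG at -131 and at -89, and Tek held neither motif. The windows of Flt4 and Prox1, not printed here, held neither motif as well. Over all 32851 windows of this length, 32.4% held GCGTG and 0.317% held GGAAATTCC. A match describes the letters in the window, and no binding was measured here.

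Of the ligands of these receptors, Vegfd was the one of the Flt4 ligands that could be measured. Its 3 probe sets read 67.5, 62.9 and 71.7 in transgenic skin, against 39.8, 37.0 and 29.7 in wild-type skin, with log2 ratios of 0.76, 0.77 and at least 1.05. All 3 were higher in transgenic skin. The signal of Vegfc was 0.8 on both arrays. Vegfa, the ligand of Kdr, read 78.3 in transgenic and 100.1 in wild-type skin (-0.35) by its brighter probe set and was at least 0.09 by the other, so its direction is uncertain. The Tek ligands Angpt1 (2.1 in transgenic and 1.6 in wild-type skin) and Angpt2 (27.9 in transgenic and 9.0 in wild-type skin) did not reach the floor. Over the 17 measured growth factor and guidance genes, 2 reached 2-fold higher and none 2-fold lower, and the median was 0.41 (0.10 to 0.50 over the alternatives). Those 2 were Thbs1, the gene of thrombospondin, a matrix protein that restrains vessel growth, with log2 ratios of 1.65 and 1.35 by its 2 probe sets, and Angptl4, a secreted inhibitor of lipoprotein lipase (1.28). Sema3f, a repulsive guidance cue for endothelium (-0.40), and Vegfa were the lowest. The low end of the median, 0.10, came from a setting that also counted genes below the floor, 25 genes in all. Without that setting the lowest was 0.23, from the mean over probe sets.

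Among 18 measured vessel receptors and Notch genes 2 reached 2-fold higher and none 2-fold lower by their brightest probe sets. The median of the list was -0.16 (-0.19 to -0.04 over the alternatives). The 2 were Pdgfra, a receptor that marks fibroblasts more than vessels (166.5 in transgenic and 63.3 in wild-type skin, 1.40, but at least 0.18 by its other probe set), and Tgfbr2, a receptor of transforming growth factor beta (647.5 in transgenic and 310.2 in wild-type skin, 1.06). The Notch effector Heyl (-0.60) and the netrin receptor Unc5b (-0.53) were the lowest by those probe sets. Efnb2 was at -0.26 by its brightest probe set and at -0.97 by another. Its dimmer probe sets read 21.4 and 14.6 in transgenic skin, below the floor, and 62.4 and 51.8 in wild-type skin. Their ratios, at most -0.85 and at most -0.58, are bounds, so a larger difference is possible. The co-receptor Nrp1, which partners Kdr, was at 0.06 by its brightest probe set, at 0.68 by another (117.1 in transgenic and 72.9 in wild-type skin) and at least 0.24 by the dimmest.

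Some of the lists of genes for other cell types of whole skin also differed between the 2 arrays. Keratinocyte genes had a median of 0.62 over 10 measured genes, 8 of them above 0. They ran from Krt15, a keratin of basal cells and the hair follicle bulge (317 in transgenic and 851 in wild-type skin, -1.43), and the epithelial regulator Trp63 (-0.29) to Krt1, a keratin of the spinous layer (2.61). The defining basal keratins Krt5 (0.56) and Krt14 (0.74) lay between. Neutrophil genes had a median of 0.63 over 7 genes, which depended on the floor and ran from 0.47 to 1.22 over the alternatives. Skeletal muscle genes, by contrast, had a median of -0.51 over 13 genes and 12 of them lay below 0. Fibroblast (-0.10, 13 genes) and adipocyte (-0.01, 7 genes) medians were close to that of all genes. The part of these differences in the vessel genes was not tested.

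**Figure D3:**
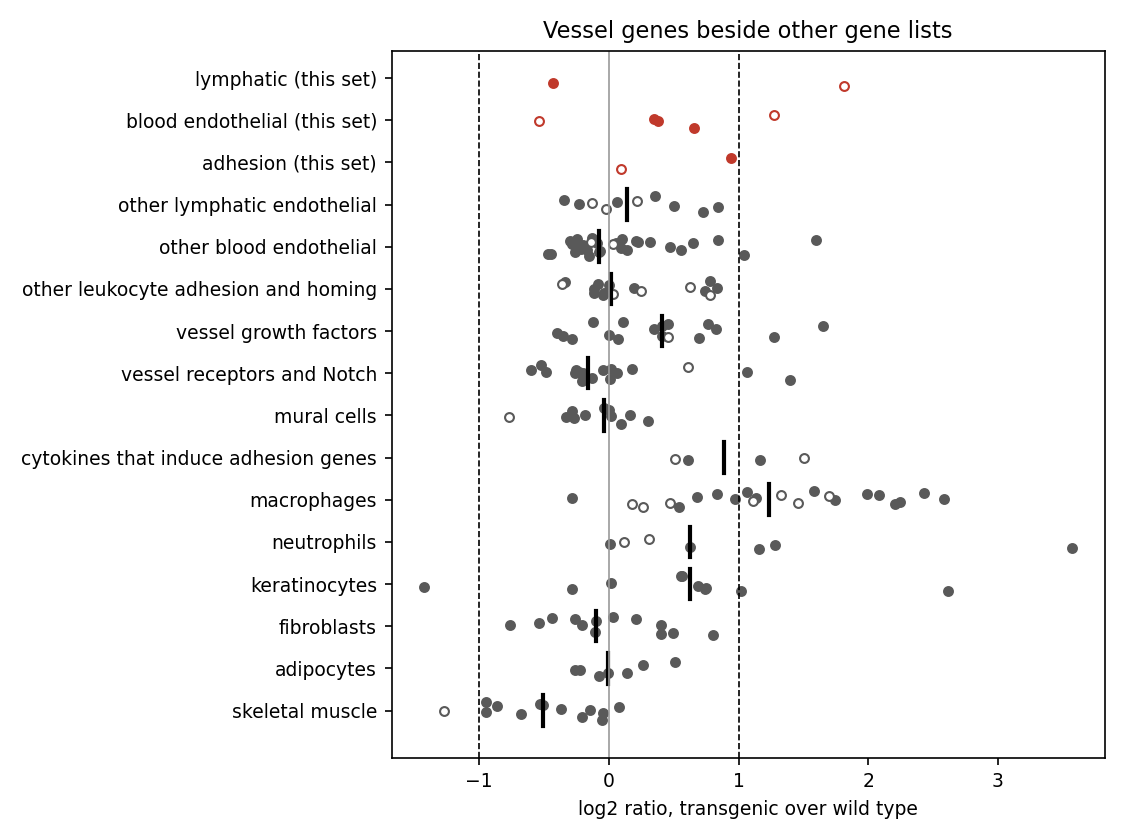
Transgenic over wild-type log2 ratios for the measured vessel genes in their 3 roles (red) and for 13 other lists (grey), 1 point per gene; open circles are bounds with 1 array at the floor, vertical bars are medians of the other lists, and dashed lines mark 2-fold. The macrophage list lies to the right with a median of 1.23, while the other blood endothelial and mural cell lists straddle 0.

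The direction of each measured vessel gene held in every processing alternative that gave it a value, while the size of the bounds depended on the floor. A floor or a pseudocount cannot reverse a ratio of the same signals, so these settings do not test direction. No setting read the dimmer probe set of Flt4 alone. Lyve1 ran from 0.79 to 1.91 and Plvap from 0.25 to 1.35. The low end came in both from a floor at the 60th percentile, a signal of 70.7, where neither reached 2-fold. Icam1 ran from 0.32 to 1.03 and Kdr from 0.29 to 0.75, with the low end at that floor too. Vcam1 ran from 0.09 to 0.81, with the high end at a floor at the 20th percentile, a signal of 11.9. Tek ran from -0.58 to -0.42 and Flt4 from -0.43 to -0.15, and Flt4 came closest to 0 when its disagreeing probe sets were averaged.

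**Figure D4:**
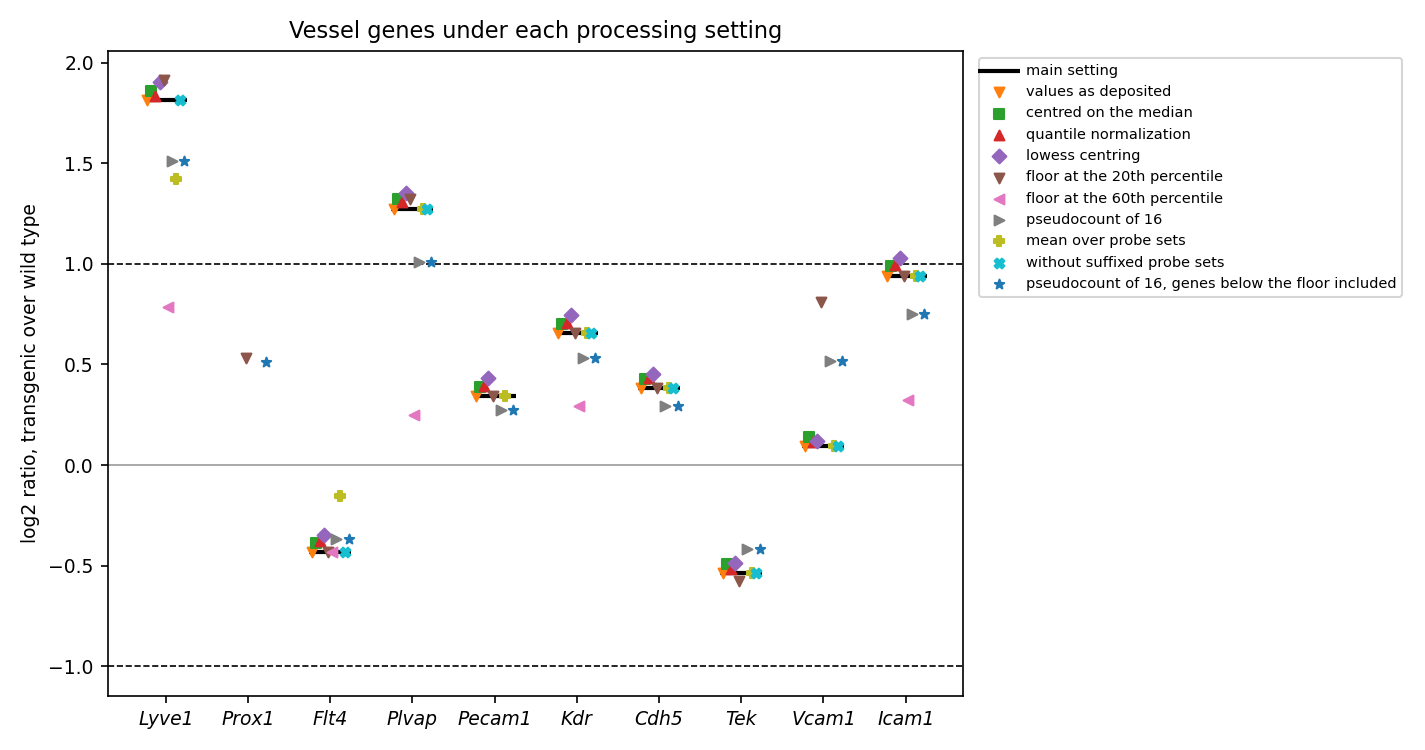
Transgenic over wild-type log2 ratio of each vessel gene (x axis) under the main setting (black bar) and each processing alternative (symbols); dashed lines mark 2-fold, and a gene below the floor on both arrays has no symbol for that setting. No measured gene crosses 0, and Lyve1 and Plvap lie below the upper line with a floor at the 60th percentile.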

How the data were processed

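Per the labels, total RNA of back skin was the starting sample and biotin the label, with 1 array per genotype. The authors deposited an intensity for each probe set, linear and scaled beforehand: both arrays had a 2% trimmed mean of 100.03. The sources used here name no software, and neither scanner files nor detection calls were used here. Median signals were 49.1 on the transgenic and 50.7 on the wild-type array. Of 22690 probe sets 20380 had 1 gene in the platform annotation of 2016, 691 several and 1555 none (64 were controls). Gene identifiers gave current symbols from a RefSeq table of GRCm38.p6, where 29 were not found.

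Signals were scaled to equal trimmed means, raised to the floor and put on the log2 scale (Python 3.11.15, pandas 2.3.3). The brightest probe set stood for a gene, and a gene was called at 2-fold. With 1 array per group no p-value was computed, and precision is limited by the number of arrays. The calculation was tested on simulated data, with changes placed only in genes well above the floor. Changes in dim genes, and bounds, were therefore not covered by it. The vessel genes and all lists were chosen with earlier results of these data known. Besides the vessel genes, the text names from each list genes called at 2-fold, the 2 highest and 2 lowest, and defining genes set with the lists, fewer where a list is summarised. Foxc2, Fxyd6, Stab1, Selplg, Itgb2, Itga4, Tnf, Nrp1 and Efnb2 were named outside that rule, some of them after their values were seen. The alternatives were the deposited values, median and lowess centring (statsmodels 0.14.6), quantile normalization, a pseudocount of 16, a floor at the 20th or at the 60th percentile, the mean over probe sets, no suffixed probe sets, and other call limits. The ranges also include a pseudocount of 16 that counted genes below the floor, which was not planned.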

Additional observations from a re-analysis of the deposited data

How the results depend on the processing

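The count of vessel genes at least 2-fold higher was 2, and it was 0 with the floor at the 60th percentile, since a higher floor shortens the bounds of dim genes. It was 4 with a limit of 1.5-fold (Lyve1, Plvap, Kdr and Icam1), 1 with a limit of 3-fold (Lyve1), and 3 with lowess centring, which added Icam1. None was at least 2-fold lower in any setting, the limit of 1.5-fold included. The median log2 ratio of the adhesion genes, 0.52, was 0.88 under a floor at the 20th percentile. It lies midway between only 2 genes, Icam1 (0.94) and Vcam1 (at least 0.09). The median of the measured lymphatic genes, 0.69, was 0.18 under the higher floor. It too lies between only 2 genes, Lyve1 (at least 1.81) and Flt4 (-0.43), of opposite sign, so it describes no common shift. The blood endothelial median, 0.38, moved by less than the spread of a single probe set (SD 0.26, from 2535 genes with at least 2). Under the higher floor it was 0.27 and rested on only Plvap (at least 0.25) and Kdr (at least 0.29). The other blood endothelial genes of the set had no ratio there, so its small move does not show that the single genes held. A pseudocount of 16 that also counted genes below the floor was added after the data were seen and put Prox1 at 0.51. Over all genes, 202 were higher and 97 lower by 2-fold, against 393 and 257 under the lower floor and 123 and 45 under the higher one. No paired analysis was possible because each group has 1 array. Signals near the floor limit all of these ratios, and no value covers the spread between animals.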
